A study of Oryctolagus cuniculus with 15 samples.

Results

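MATN3, MATN4 and CHAD are genes of extracellular matrix proteins best known from cartilage, and their transcripts were followed here in rabbit corneal keratocytes by bulk RNA-seq over 5 culture conditions. The 3 genes were taken by symbol from the 23428 genes of the count and FPKM tables. They had been chosen by their expression in these same libraries, where fibrillar collagen was held to raise them, so every difference between fibrillar and collagen-coated cultures, and every difference from 2DF, whose high values took part in the choice, is given below as a description, with its standard error and no test. The data go against that reading for one of them: MATN3 was higher than on coated dishes only when cells lay on top of the fibrillar collagen, and lower than on coated dishes when cells were embedded in it.

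The matrilins are secreted proteins built from von Willebrand factor A domains and EGF-like domains, held together as oligomers by a coiled coil. They act as adaptors that connect collagen fibrils, proteoglycans and other matrix proteins into a network. MATN3 (matrilin-3) is known mainly from cartilage, whereas MATN4 (matrilin-4) is found in a wider range of connective tissues. CHAD (chondroadherin) is a leucine-rich repeat protein of cartilage that binds collagen and cell surface receptors, among them integrin α2β1. The corneal stroma is a collagen-rich tissue of a different kind, and keratocytes are the resident cells that deposit and maintain it.

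All libraries were made from first-passage keratocytes of New Zealand white rabbits, kept in serum-free medium for 6 days in contact with bovine type I collagen. In 2DC, cells grew on a collagen-coated dish and were incubated with digestion medium before lysis, and in 2DC_L they grew on the same coating and were lysed directly. In 2DF, cells were plated on top of a polymerized fibrillar collagen matrix. In 3DF, they were embedded in such a matrix at 100000 cells per matrix, and in 3DF_50 at 50000. The matrices of 2DF, 3DF and 3DF_50 were also incubated with digestion medium to release the cells before lysis. In this step 2DC is the matched coated condition, and comparisons of fibrillar cultures with 2DC_L differ in it as well. Each condition had 3 libraries, each from pooled dishes or matrices, which the study's methods describe as separate experiments. The comparison of 2DF with 2DC also changes the stiffness of the substrate, and the 3D cultures have a lower effective cell density.

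Totals ran from 14626982 to 31804255 counts per library, of which 2 to 370 fell to MATN3, the least abundant of the 3 genes. The keratocyte markers KERA, LUM, DCN, ALDH1A1 and TKT summed to between 16782 and 31197 FPKM in every library. Library names carry a prefix (E2 to E10) whose meaning is not given in the sources used here. The 2DF libraries carry E5, E9 and E10, and 2DF shares a prefix (E5) with 3DF_50 only, not with 3DF. As E9 and E10 occur in 2DF alone, a fit with the prefix as a term compares 2DF through its E5 library only. In bulk RNA, a change in the RNA of each cell and a change in the share of cells that make it cannot be told apart.

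MATN3 was a low gene on coated dishes, higher in 2DF, and close to the limit of counting in both 3D conditions. Its levels were 2.11, 1.17 and 1.59 FPKM in the 2DC libraries and 1.47, 1.33 and 1.59 FPKM in the 2DC_L libraries. In 2DF they were 10.1, 6.39 and 12.7 FPKM. In 3DF they were 0.429, 0.475 and 0.0591 FPKM, and in 3DF_50 they were 0.169, 0.419 and 0.0911 FPKM. All 2DF libraries lay above every other library, and all 6 libraries of the 3D conditions lay below every 2D library. Among 14036 genes tested over the 5 conditions, 1.75% had all 2DF libraries above the other 12, and 4.29% had all 3D libraries below the other 9. The 3D values rested on few reads, 18, 18 and 2 counts in 3DF and 5, 13 and 3 in 3DF_50. Mean levels were 9.72 ± 3.17 FPKM for 2DF (SD, n = 3), 1.62 ± 0.475 for 2DC, 1.46 ± 0.127 for 2DC_L, 0.321 ± 0.228 for 3DF and 0.226 ± 0.171 for 3DF_50. In that order of levels the ranges overlapped between 2DC and 2DC_L and between 3DF and 3DF_50, and no other neighbours overlapped. No overlap in either direction was found for 35.2% of genes tested in 2DF vs. 2DC and 44.8% in 3DF vs. 2DC_L.

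MATN4 was present in every culture and stood above its coated-dish levels wherever fibrillar collagen was used. The 2DC libraries had 24.4, 23.2 and 13.7 FPKM, and the 2DC_L libraries had 19.9, 23.3 and 29.5 FPKM. The 2DF libraries had 75.8, 110.5 and 86.2 FPKM. The 3DF libraries had 66.8, 119.6 and 57.0 FPKM, and the 3DF_50 libraries had 45.3, 35.1 and 62.6 FPKM. All 9 fibrillar libraries lay above all 6 coated ones. Among the fibrillar conditions, 3DF overlapped both 2DF and 3DF_50. Every 3DF_50 library lay below every 2DF library, as was so for 16.8% of genes tested. The mean ran from 90.8 ± 17.8 FPKM in 2DF (SD, n = 3) to 81.1 ± 33.7 in 3DF, 47.7 ± 13.9 in 3DF_50, 24.2 ± 4.88 in 2DC_L and 20.4 ± 5.84 in 2DC. Of these neighbours, 3DF_50 and 2DC_L were the one pair whose ranges did not overlap, as was so for 55.2% of genes tested.

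CHAD had the highest mean of the 3 genes in each condition, as compared per length in FPKM, although in 3DF its mean lay within the spread of that of MATN4, and MATN4 was higher in 3DF replicate 2 (119.6 against 103.0 FPKM). Its levels were 34.7, 39.3 and 26.2 FPKM in 2DC and 32.2, 43.3 and 43.2 FPKM in 2DC_L. They were 184.7, 201.4 and 258.2 FPKM in 2DF. In 3DF they were 76.7, 103.0 and 76.1 FPKM, and in 3DF_50 they were 53.2, 59.1 and 73.0 FPKM. The conditions formed a ladder with little overlap: the 2DF libraries were highest, the 3DF libraries next, the 3DF_50 libraries below those, and the coated dishes lowest. Mean levels were 214.7 ± 38.5 FPKM for 2DF (SD, n = 3), 85.3 ± 15.4 for 3DF, 61.8 ± 10.1 for 3DF_50, 39.6 ± 6.34 for 2DC_L and 33.4 ± 6.63 for 2DC, and only the coated conditions overlapped. The gap between 3DF and 3DF_50 was narrow. The lowest 3DF value was 76.1 FPKM and the highest 3DF_50 value was 73.0 FPKM. Among all genes tested, 29.3% had no overlap in either direction in 3DF vs. 2DF and 29.4% in 3DF vs. 3DF_50. In 3DF_50 vs. 2DC_L the share was 55.2%. Like MATN4, CHAD was higher in all 9 fibrillar libraries than in all 6 coated ones, an ordering that 5.33% of the 14036 genes showed.

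**Figure D1:**
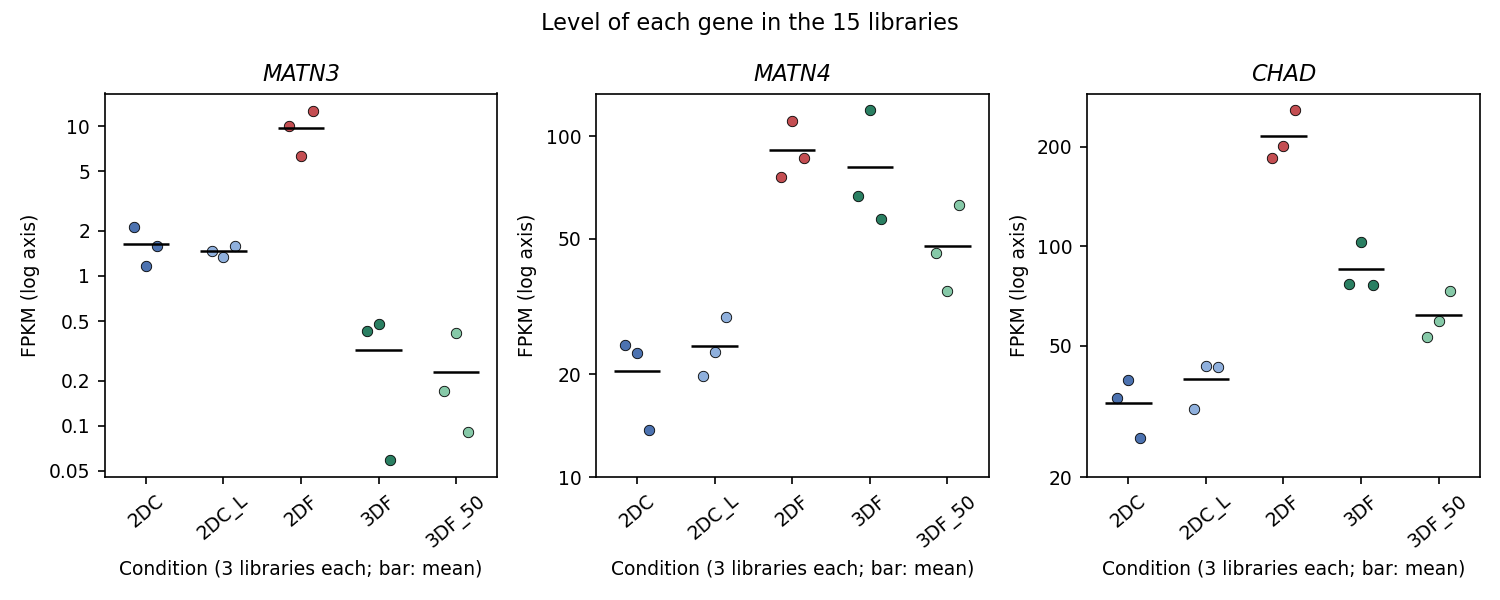
FPKM of MATN3, MATN4 and CHAD (log axes) in each of the 15 libraries, with 3 points per culture condition and a bar at the mean. MATN4 and CHAD sit above the coated dishes in all 9 fibrillar libraries, whereas MATN3 is highest in 2DF (6.39 to 12.7 FPKM) and lowest in the 6 libraries of 3DF and 3DF_50 (0.0591 to 0.475 FPKM).

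The place of these genes in the whole transcriptome moved with their level. CHAD ranked 240 of 17831 genes above 0 by mean FPKM in 2DF and 1931 of 18245 in 2DC. MATN4 ranked 587 in 2DF, 607 of 18257 in 3DF and 3329 in 2DC. MATN3 ranked 5883 in 2DF, 10395 in 2DC and 12798 in 3DF, so it was a mid-ranking gene at its highest.

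Against 2DC, the log2 fold changes in 2DF were of like size, 2.57 for MATN3 (SE 0.30), 2.16 for MATN4 (SE 0.22) and 2.69 for CHAD (SE 0.18). These are 5.94, 4.46 and 6.45 times the 2DC level. In 3DF the 3 genes parted from each other: the log2 fold change against 2DC was -2.32 for MATN3 (SE 0.54), 1.98 for MATN4 (SE 0.32) and 1.34 for CHAD (SE 0.19). In 3DF_50 it was -2.84 for MATN3 (SE 0.49), 1.22 for MATN4 (SE 0.25) and 0.89 for CHAD (SE 0.16). The same directions held against 2DC_L, the dish without digestion medium, where MATN3 stood at 2.75, -2.14 and -2.67 in 2DF, 3DF and 3DF_50. MATN4 stood there at 1.92, 1.75 and 0.99, and CHAD at 2.45, 1.11 and 0.65. The comparisons with 2DC share its 3 libraries, and those with 2DC_L share theirs, so that these values are not independent of each other. Scaled by total count alone, the log2 fold change of CHAD in 3DF_50 was 1.25 against 2DC and 1.00 against 2DC_L. With the library prefix as a term over all 5 conditions, that of MATN3 in 2DF was 1.06 against 2DC (SE 0.77) and 1.23 against 2DC_L (SE 0.75).

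The comparison of cells embedded in fibrillar collagen with cells on top of it asks what dimension adds when the collagen is fibrillar in both. The 2DF libraries took part in the choice of the members, and MATN3 was above the coated dishes in 2DF alone, so that a lower value elsewhere was favoured by the choice. The differences are therefore given with no test. In 3DF vs. 2DF the log2 fold change was -4.86 for MATN3 (SE 0.47), or 0.0344 of its 2DF level, and -1.33 for CHAD (SE 0.18), or 0.398 of its 2DF level. MATN4 stood at -0.16 (SE 0.26). With a library left out, MATN3 ranged from -5.23 to -4.41 and CHAD from -1.50 to -1.17. The value of MATN4 turned to 0.0081 without 2DF replicate 2 and to 0.044 without 3DF replicate 3. Since 2DF and 3DF share no prefix, a fit of all 5 conditions with the prefix as a term joins them only through other conditions. In it MATN3 stood at -2.89 (SE 0.80) and CHAD at -0.93 (SE 0.28).

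In 3DF_50, the 3D condition at the lower cell number, the differences from 2DF had the same order, again with no test. The log2 fold change was -5.39 for MATN3 (SE 0.41), -1.78 for CHAD (SE 0.15) and -0.91 for MATN4 (SE 0.19). That of MATN4 was -1.04 without 2DF replicate 1 and -1.16 without 3DF_50 replicate 3. MATN3 reached -6.18 without 3DF_50 replicate 2, the 3DF_50 library with the most MATN3 reads. The prefix E5 holds a 2DF and a 3DF_50 library, and within it MATN3 went from 10.1 FPKM in 2DF to 0.419 in 3DF_50, MATN4 from 75.8 to 35.1 and CHAD from 184.7 to 59.1. With the prefix as a term, the log2 fold changes were -4.59 for MATN3 (SE 0.45), -1.66 for CHAD (SE 0.22) and -1.13 for MATN4 (SE 0.20).

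The number of cells in the 3D matrix gave no call for the 3 genes, where a call needs an adjusted p no higher than 0.05 together with a change of 1 or more on the log2 scale. From 3DF_50 to 3DF the log2 fold change was 0.51 for MATN3 (SE 0.73, edgeR adjusted p = 0.725), 0.74 for MATN4 (SE 0.29, edgeR adjusted p = 0.201) and 0.44 for CHAD (SE 0.17, edgeR adjusted p = 0.195). In this comparison 0.452% of 13285 genes were called in either direction. At an unadjusted p under 0.05, 2 of the 3 genes passed in edgeR, and 0 were called in DESeq2 and 0 in limma. Of 48 other cartilage-type genes tested, taken from the lists described below, 22 passed that unadjusted limit in edgeR. The share of all genes at that limit is not given here. In the prefix E7, with a library of each, MATN4 had 119.6 FPKM in 3DF and 62.6 in 3DF_50, and CHAD had 103.0 and 73.0.

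Digestion medium before lysis, the step that separates 2DC from 2DC_L, gave them no call either. The log2 fold change was 0.16 for MATN3 (SE 0.26, edgeR adjusted p = 0.963), -0.24 for MATN4 (SE 0.22, edgeR adjusted p = 0.924) and -0.24 for CHAD (SE 0.17, edgeR adjusted p = 0.919). At an unadjusted p under 0.05 edgeR passed 0 of the 3, and DESeq2 and limma called 0. Over all 13608 genes tested, 0.265% were called. The sign of MATN3 was not settled: without 2DC replicate 1 its value was -0.082. That of MATN4 was 0.073 with the prefix as a term.

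**Figure D2:**
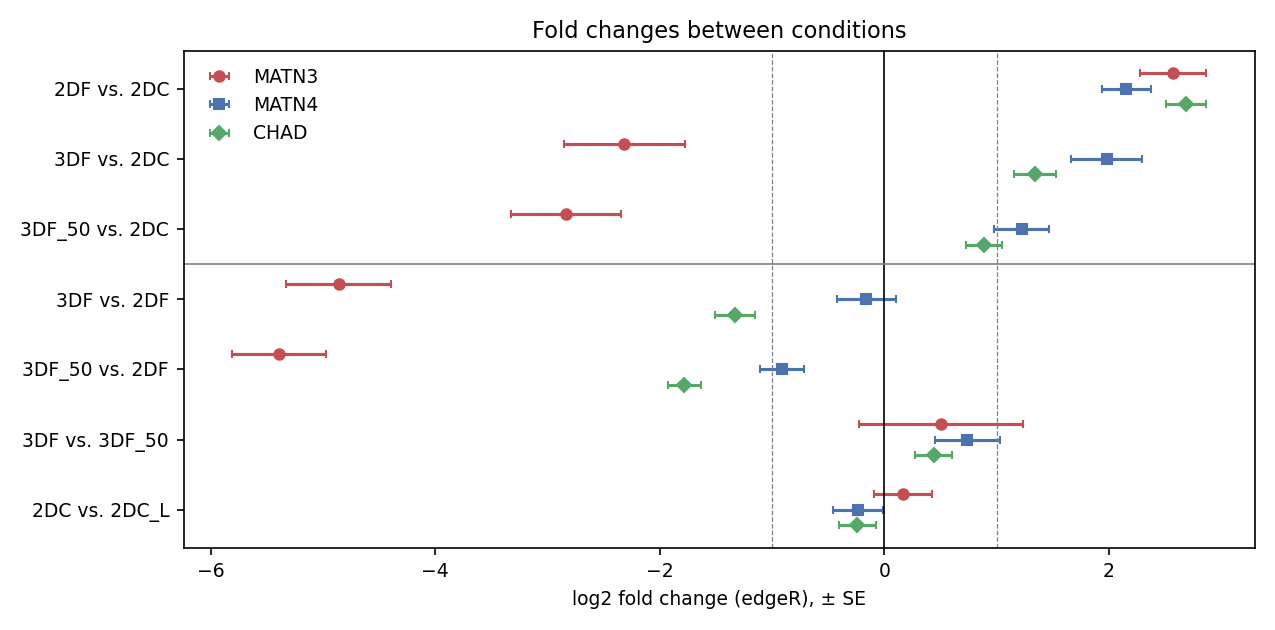
Log2 fold changes of MATN3, MATN4 and CHAD from edgeR, with bars of 1 standard error, for fibrillar against coated cultures (above the line) and for comparisons within fibrillar or within coated cultures (below it). Only 3DF vs. 3DF_50 and 2DC vs. 2DC_L were tested. Dashed lines mark a log2 fold change of 1 in either direction. MATN3 changes side between 2DF (2.57) and 3DF (-2.32) against 2DC, and MATN4 stays near 0 in 3DF vs. 2DF (-0.16).

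The matrilins as a family show how the 2 members differ. MATN2 (matrilin-2, a widely expressed member) had means of 41.8 to 53.1 FPKM over the 5 conditions. MATN1 (matrilin-1, the classical cartilage matrilin) had means of 0.00910 to 0.0277 FPKM, too low to be tested in any comparison. MATN2 was called in none of the 10 comparisons, with log2 fold changes between -0.34 and 0.28. The summed matrilin level was 73.5 ± 10.9 FPKM (SD, n = 3) for 2DC, 78.8 ± 7.62 for 2DC_L, 144.9 ± 19.7 for 2DF, 133.2 ± 30.3 for 3DF and 89.8 ± 11.5 for 3DF_50. MATN4 made up 27.4 ± 4.40% of that sum in 2DC and 30.7 ± 4.63% in 2DC_L, and 62.4 ± 4.29% in 2DF, 59.3 ± 10.7% in 3DF and 52.4 ± 8.80% in 3DF_50. So MATN2 was the main matrilin transcript in every coated library, at 64.2% to 75.0%, and MATN4 was the main one in every 2DF and 3DF library, at 52.5% to 71.6%. In 3DF_50 the order differed between libraries, with MATN4 at 49.9%, 45.1% and 62.2% and MATN2 at 49.9%, 54.3% and 37.7%. MATN3 made up 3.89% to 8.72% in the 2DF libraries, 1.53% to 2.59% in the coated ones and at most 0.538% in the 3D ones.

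**Figure D3:**
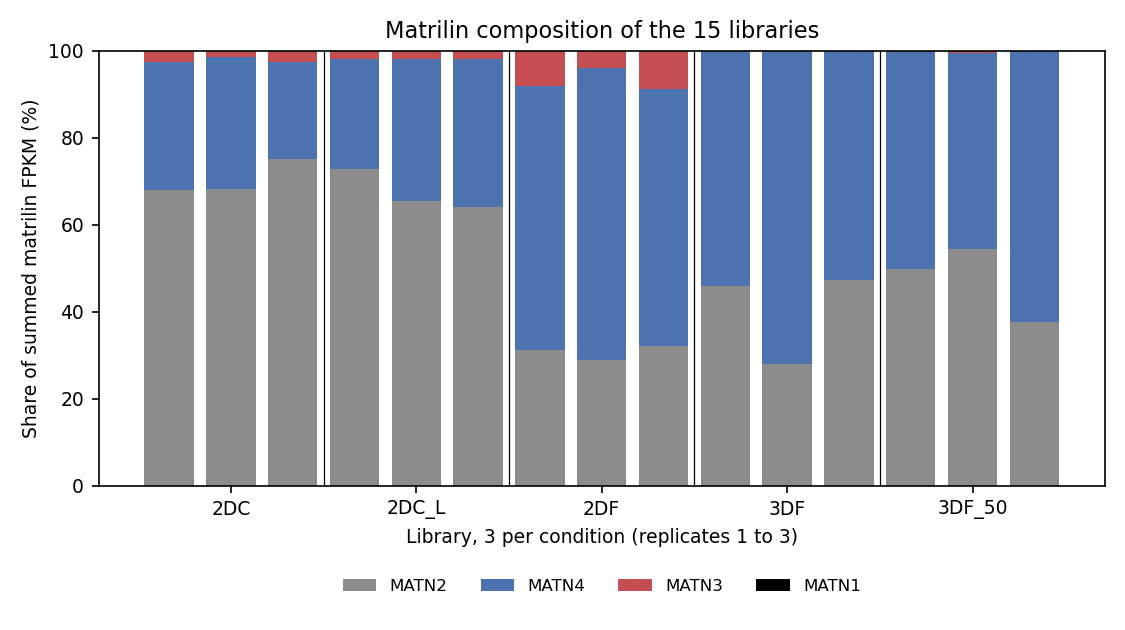
Share of the summed FPKM of MATN1 to MATN4 held by each gene, in percent, with 1 bar for each of the 15 libraries. MATN2 holds 64.2% to 75.0% in the coated libraries, MATN4 holds 59.2% to 67.3% in 2DF, and MATN3 is visible mainly in 2DF (3.89% to 8.72%).

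The ratio of CHAD to MATN4, both per length, parted on-top from embedded culture. It was 1.82 to 3.00 in the 2DF libraries, 0.862 to 1.34 in 3DF and 1.17 to 1.69 in 3DF_50, with 1.42 to 1.91 on the coated dishes. The ratio of CHAD to MATN3 was 18.4 to 31.5 in 2DF, near the 16.4 to 33.7 of the coated dishes, and 141.2 or more in each 3D library. The ratios were not tested.

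In oryCun2, the genome build of the files, MATN3 lies on chromosome 2 from 169165408 to 169183905 on the minus strand. CHAD lies on chromosome 19 from 37254563 to 37258436 on the plus strand, wholly inside the span of ACSF2, a gene of an acyl-CoA synthetase family member on the opposite strand. MATN4 lies on the unplaced scaffold Un0027 from 451757 to 459212 on the minus strand, and 1956 of its bases overlap RBPJL, a gene of a transcription factor related to RBPJ, on the plus strand. Whether the counting used strand is not given in the sources used here, so reads from bases shared with an opposite gene cannot be told apart. The overlapping genes took other courses. RBPJL had means of 5.91, 6.87 and 5.05 FPKM in 2DC, 2DF and 3DF, far below MATN4, and was not called in 2DF vs. 2DC, 3DF vs. 2DC or 3DF vs. 2DF. The levels of ACSF2 were 46.5, 34.4 and 44.2 FPKM, and it was not called in those comparisons either.

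Among the neighbours that do not overlap, WDR35 and LAPTM4A on either side of MATN3 had 6.79 and 326.4 FPKM in 2DF against 7.76 and 354.5 in 2DC, and neither was called in 2DF vs. 2DC or 3DF vs. 2DF. SDC4, the gene of the cell surface proteoglycan syndecan-4, lies 13188 bases from MATN4. Its libraries ranged from 28.9 to 40.6 FPKM on the coated dishes and from 48.3 to 114.8 FPKM on or in fibrillar collagen, and it rose in 2DF vs. 2DC by 1.32 on the log2 scale (SE 0.14, edgeR adjusted p = 0.000892). RSAD1, 9444 bases from CHAD, ranged from 3.13 to 4.65 FPKM on the coated dishes and from 4.94 to 7.94 FPKM in the fibrillar cultures. MATN4 and CHAD thus each had 1 nearby gene whose fibrillar libraries were all above the coated ones, an ordering that 5.33% of 14036 genes showed. LOC103352377 and LRRC59, next to MATN4 and CHAD on the other side, did not show it. RSAD1 was named after its values were seen, and a link between neighbours was not tested.

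**Figure D4:**
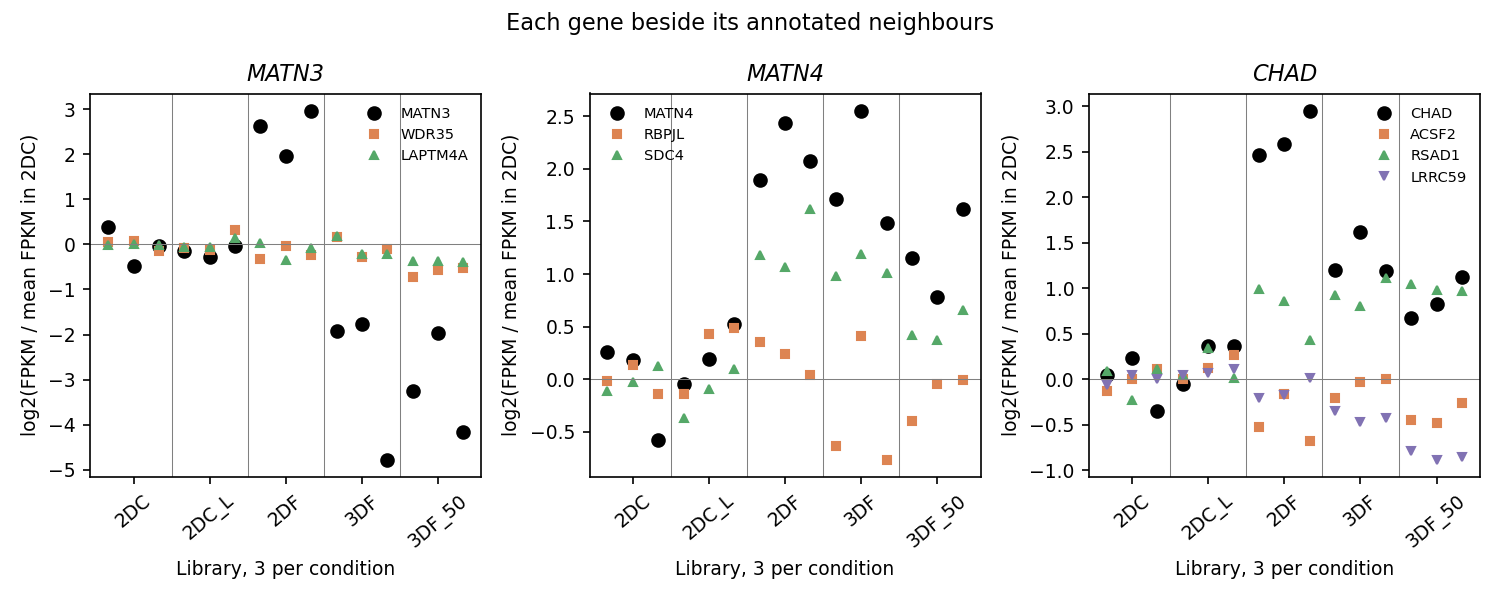
Log2 of the FPKM over the mean FPKM in 2DC for MATN3, MATN4 and CHAD (circles) and for the genes that overlap or neighbour them (small symbols), in each of the 15 libraries. RBPJL and ACSF2, which overlap MATN4 and CHAD, do not follow them. SDC4 and RSAD1 are higher in all 9 fibrillar libraries than in all 6 coated ones, as are 5.33% of 14036 genes.

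To see whether cartilage genes moved as a body, 64 other genes of 6 lists were read from the same fits: cartilage collagens and aggrecan, other cartilage glycoproteins, matrilins and related proteins, small leucine-rich repeat proteins, binding partners with receptors and proteases, and chondrogenic regulators. COMP, a further defining cartilage gene, was not analysed here. On top of fibrillar collagen a few of the aggregate-forming cartilage genes were higher, and most of the lists did not pass. In 2DF vs. 2DC, 6 of 49 tested genes rose and 1 fell. Of all 13258 genes tested, 2.04% were called higher and 2.93% lower. The median log2 fold change of the lists was 0.16 against 0.0045 over all genes. ACAN (aggrecan, the large proteoglycan of cartilage) rose by 2.28 (SE 0.38, edgeR adjusted p = 0.00571), from 0.273 to 1.33 FPKM. HAPLN1, the link protein that fastens aggrecan to hyaluronan, rose by 1.95 (SE 0.26, edgeR adjusted p = 0.00198). COL10A1 (collagen X of growth plate cartilage) rose by 1.46 (SE 0.32, edgeR adjusted p = 0.0167) and CILP (cartilage intermediate layer protein) by 3.13 (SE 0.69, edgeR adjusted p = 0.0185). ITGA10, a collagen-binding integrin subunit of chondrocytes, rose by 1.00 (SE 0.17, edgeR adjusted p = 0.00624). With SDC4 above, these are the 6. All but SDC4 were below 4 FPKM in 2DF, far under MATN4 and CHAD. ADAMTS5, an aggrecan-cleaving protease, fell by 2.29 (SE 0.13, edgeR adjusted p = 4.18e-05).

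Single libraries decided some of these calls. CILP was lost without 2DC replicate 2 (3.04, edgeR adjusted p = 0.0816), and its 2DF libraries ranged from 1.26 to 7.91 FPKM. COL10A1 was lost without 2DC replicate 2 (edgeR adjusted p = 0.0751) or 2DF replicate 1 (edgeR adjusted p = 0.0531). ITGA10, at the very limit on the fold change, dropped under it without 2DC replicate 1 (0.92), 2DC replicate 3 (0.99), 2DF replicate 1 (0.99) or 2DF replicate 2 (0.99). With the prefix as a term, 2DF was compared through its E5 library alone, so that this fit cannot tell whether the calls in 2DF vs. 2DC hold.

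From on top of the collagen to within it, part of the lists fell. In 3DF vs. 2DF, 10 of 49 tested genes fell and 1 rose, against 1.69% and 2.09% of all genes tested, and the median of the lists was -0.080 against 0.011 over all genes. HAPLN1 fell by 1.84 (SE 0.26, edgeR adjusted p = 0.00329) and COL10A1 fell by 2.10 (SE 0.30, edgeR adjusted p = 0.00331). CILP fell by 2.99 (SE 0.64, edgeR adjusted p = 0.0227) and ACAN fell by 1.88 (SE 0.46, edgeR adjusted p = 0.0383), to 0.358 FPKM. These 4 were also called in 2DF vs. 2DC, which shares the 2DF libraries. The other 6 were COL11A1 (a collagen XI chain, log2 fold change -1.67), MGP (matrix Gla protein, an inhibitor of calcification, -1.59), ITGA11 (a collagen-binding integrin subunit, -1.33) and the small leucine-rich repeat proteins BGN (biglycan, -1.84), FMOD (fibromodulin, -1.90) and ASPN (asporin, -3.49), with edgeR adjusted p from 0.000636 to 0.00498. These 6 were abundant or moderate genes in all 2D cultures, as ASPN shows with 326.9 FPKM on the coated dish, 307.6 on top of fibrillar collagen and 27.3 within it. GDF5, a growth factor of joint formation, rose by 1.48 (SE 0.26, edgeR adjusted p = 0.009). ACAN was lost without 2DF replicate 2, 2DF replicate 3, 3DF replicate 1 or 3DF replicate 3 (edgeR adjusted p from 0.0821 to 0.138), and CILP without 3DF replicate 1 or 3DF replicate 3 (0.0685 and 0.054). With the prefix as a term, 2DF again rested on its E5 library alone, so that this fit cannot tell whether the calls in 3DF vs. 2DF hold.

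Against the coated dish, embedded culture left MATN4 and CHAD high while more of the list fell than rose. In 3DF vs. 2DC, 3 of 48 tested genes rose and 8 fell, against 3.24% and 4.32% of all 13493 genes, and the median of the lists was -0.091 against 0.012. Scaled by total count alone, the calls over all genes turned from 437 higher and 583 lower to 649 and 475. The genes that rose were SDC4 (1.05, SE 0.12, edgeR adjusted p = 0.000895), GDF5 (1.62, SE 0.34, edgeR adjusted p = 0.0138) and CRTAC1, a glycoprotein of cartilage (1.19, SE 0.28, edgeR adjusted p = 0.0243). Those that fell were COL11A1 (-1.93), COL9A3 (a collagen IX chain, -1.79), MGP (-1.81), BGN (-1.50), FMOD (-1.43), ASPN (-3.59), ADAMTS5 (-1.53) and VIT (vitrin, which carries von Willebrand factor A domains as the matrilins do, -1.21), with edgeR adjusted p from 0.000161 to 0.0424. Several of these rested on single libraries. VIT was lost without any of the 2DC libraries or without 3DF replicate 1 or 2 (edgeR adjusted p from 0.0682 to 0.135), CRTAC1 without 2DC replicate 2, 2DC replicate 3 or 3DF replicate 2 (0.0996, 0.0742 and 0.0743) and FMOD without 2DC replicate 2 or 3DF replicate 3 (0.0622 and 0.0643). GDF5 was lost without 2DC replicate 3 (0.0528), and SDC4 dropped to 0.98 without 3DF replicate 2.

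In 3DF_50 against 2DF, 1 of 48 tested list genes rose and 14 fell, where 1.44% of the 13201 genes tested were called higher and 3.01% lower, and the median of the lists was -0.56 against 0.021. Against 2DC, 1 of 48 rose and 16 fell, where 4.28% and 7.33% of 13402 genes were called, and the median was -0.62 against 0.012. The gene that rose was GDF5 each time, by 1.83 against 2DF (SE 0.22, edgeR adjusted p = 0.000327) and by 1.97 against 2DC (SE 0.30, edgeR adjusted p = 0.00106). With the prefix as a term, where 2DF rests on its E5 library alone, the value against 2DF was 1.45. Scaled by total count alone, the calls over all genes turned from 190 higher and 397 lower to 394 and 287 against 2DF, and from 574 and 983 to 1206 and 633 against 2DC.

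In 3DF vs. 3DF_50, 2 of 48 list genes rose and 0 fell, against 0.316% and 0.135% of all 13285 genes tested. The median of the lists was 0.32 against 0.013 over all genes. ADAMTS5 rose by 1.43 (SE 0.23, edgeR adjusted p = 0.0361). ITGA2, the integrin subunit that pairs with β1 to bind collagen and CHAD, rose by 1.07 (SE 0.18, edgeR adjusted p = 0.0401). The count of called list genes was 0 without 3DF replicate 3, 3DF_50 replicate 1 or 3DF_50 replicate 2, 1 without 3DF_50 replicate 3 and 4 without 3DF replicate 1. In 2DC vs. 2DC_L, edgeR called 0 of 48 list genes, with 1 at an unadjusted p under 0.05, and DESeq2 and limma called 0. Of all 13608 genes tested there, edgeR called 0.265%.

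**Figure D5:**
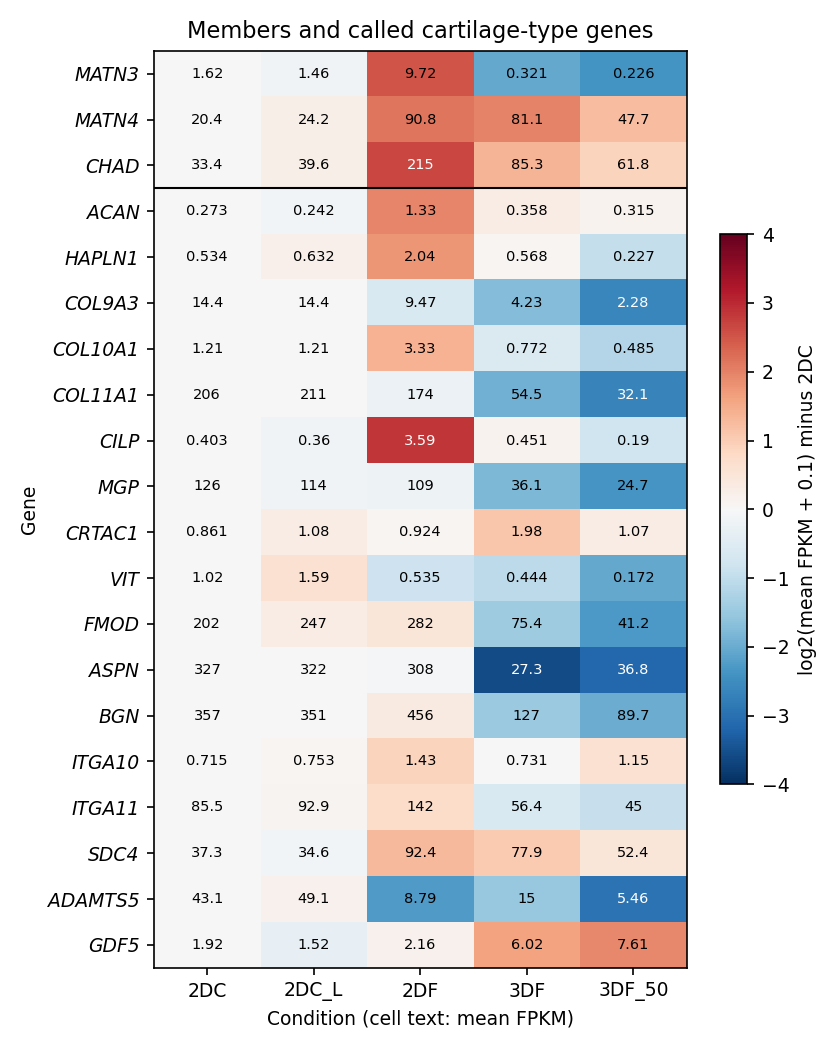
Mean FPKM (cell text) of MATN3, MATN4 and CHAD, above the line, and of the list genes called in 2DF vs. 2DC, 3DF vs. 2DC or 3DF vs. 2DF, in the 5 conditions. Colour gives log2(mean FPKM + 0.1) minus its value in 2DC. ACAN, HAPLN1, COL10A1 and CILP are highest in 2DF as MATN3 is, whereas COL11A1, MGP, FMOD, ASPN and BGN are lower in both 3D conditions than in the 2D ones.

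The central cartilage genes stayed low. COL2A1, the fibrillar collagen of cartilage, had means of 0.381 to 1.17 FPKM, highest in 2DC_L and lowest in 3DF_50. It was called lower in 3DF_50 vs. 2DC and 3DF_50 vs. 2DC_L, as were 7.33% and 8.47% of genes tested, and in no other comparison. These calls of COL2A1 were not followed through the alternatives. SOX9, the transcription factor of the chondrocyte lineage, had 1.29 to 3.59 FPKM, highest in 2DF and lowest in 3DF_50, and was called in neither 2DF vs. 2DC nor 3DF vs. 2DF. In 3DF_50 it fell by 1.46 on the log2 scale against 2DF (SE 0.32, edgeR adjusted p = 0.0114) and fell by 1.23 against 2DC (SE 0.26, edgeR adjusted p = 0.00589). The first call was lost with limma on log2(FPKM + 1) (-0.99). With the prefix as a term, where 2DF rests on its E5 library alone, the first value was -1.48. The second call was lost without 3DF_50 replicate 2 (-0.99), when scaled by total count alone (-0.88) and with limma on log2(FPKM + 1) (-0.84). COL9A1 was listed at 0 counts in every library of 2DC_L, 2DF, 3DF and 3DF_50. Over the 8 chondrocyte markers ACAN, COL2A1, COL9A1, COL11A2, HAPLN1, MATN1, LECT1 and SOX9, the summed level was 5.90 to 7.47 FPKM in 2DC, 6.89 to 8.08 in 2DC_L, 7.29 to 12.2 in 2DF, 4.90 to 6.45 in 3DF, and 3.22 to 5.99 at the lower cell number. CHAD alone was thus above the whole sum in each condition, and the sum was no higher in the 3D libraries than on the coated ones, whereas MATN4 and CHAD were.

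Markers of other cells that a corneal preparation could hold also moved with the conditions, and their part in the results was not tested. The corneal epithelium list (7 of 8 markers matched) summed to 0.0719 to 0.944 FPKM on coated dishes, 0.685 to 6.21 in 2DF, 7.74 to 12.7 in 3DF and 0.0786 to 5.92 in 3DF_50. KRT12 was at 0 in 2DC and 2DC_L, and EPCAM in 2DC_L and 2DF. Within 3DF_50 the sum was 0.0786, 0.116 and 5.92 FPKM in replicates 1 to 3. The vascular endothelium list (5 of 5) summed to 116.7 to 118.8 FPKM in 3DF and 32.9 to 75.5 elsewhere, nearly all of it KDR, a VEGF receptor (mean 114.2 FPKM in 3DF). PECAM1 was at 0.0202 FPKM in 2DC, 0.00395 in 3DF and 0 in 3DF_50, and the means of TEK and VWF were at most 0.0659 and 0.139 FPKM. The leukocyte list (5 of 5) reached 3.60 to 10.5 FPKM in 2DF and 3.36 to 5.81 elsewhere. Its means in 2DC and 2DF were 2.98 and 5.45 FPKM for CD68, 0.338 and 0.421 for CD74, and 0.0190 and 0.287 for CD3E. Those of LYZ were 1.78 and 1.38 FPKM, and those of PTPRC were 0.0513 and 0. The corneal endothelium list (5 of 5) summed to 164.7 to 262.1 FPKM in 3D and 345.3 to 543.2 in 2D, and the Schwann cell and melanocyte list (5 of 5) to 0.544 to 3.80 FPKM in all. The myofibroblast list (3 of 4) was 7.87 to 13.6 FPKM on coated dishes, 2.49 to 5.04 in 2DF and 0.686 to 1.71 in 3D.

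Across the 15 libraries, log2(FPKM + 1) of MATN4 and CHAD had a Pearson r of 0.895, that of MATN3 and CHAD 0.589 and that of MATN3 and MATN4 0.230. The libraries fall into 5 conditions of 3, so that these are descriptions of a few levels and not of 15 separate cultures. The genes most like each member were taken as the 3 with the highest r among 10033 genes with a symbol and a mean of at least 1 FPKM in a condition.

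For MATN3 they were FGF13 (an intracellular FGF-family protein, r = 0.961), APEX2 (a DNA repair endonuclease, r = 0.953) and SAMD4A (an RNA-binding translational repressor, r = 0.941). FGF13 had the same shape at a smaller range, with 2.51, 6.56, 1.46 and 1.08 FPKM in 2DC, 2DF, 3DF and 3DF_50. For MATN4 they were TIMP2 (an inhibitor of matrix metalloproteinases, r = 0.948), PGER5 (r = 0.935) and FGFR1 (a receptor of fibroblast growth factors, r = 0.934). TIMP2 had 270.8, 547.3, 539.2 and 397.7 FPKM in that order, and so shared the near-equal levels of MATN4 in 2DF and 3DF. For CHAD they were SLC6A8 (the creatine transporter, r = 0.951), THBS2 (thrombospondin-2, a matricellular protein, r = 0.948) and ETV6 (a transcriptional repressor of the ETS family, r = 0.934). THBS2 had 157.2, 407.1, 262.0 and 218.9 FPKM in that order, the same order of conditions as CHAD but for the coated dishes. With other scalings, Spearman's rho or condition means in place of libraries, 2 or 3 of the 3 genes stayed among the first 10, except 1 for MATN4 with condition means.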

How the data were processed

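Bulk RNA-seq covered 15 libraries in 5 conditions. The authors' deposited counts are whole reads per gene, aligned to oryCun2 with HISAT2 2.0.5 and counted with featureCounts 1.5.0-p3, unnormalized. The authors' deposited FPKM are these counts per gene length and per library size, a size set by them at 0.921 to 1.24 times the total count. Conditions came from the sample labels.

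Pairs of conditions were compared with edgeR 4.0.16 in R 4.3.3 by its quasi-likelihood F test, two-sided, after TMM scaling and filterByExpr at a minimum of 10 counts. Each fit held 2 conditions, and p-values were adjusted by Benjamini–Hochberg over all genes tested. Called genes passed 0.05 in adjusted p and 1 in |log2 fold change|. The SE is the size of the log2 fold change over the square root of F. Means are ± SD over 3 libraries. The fits were checked on simulated counts.

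The members and the lists were chosen with earlier results of these data known, so that p-values of members are given only for 3DF vs. 3DF_50 and 2DC vs. 2DC_L. Adjusted p of list genes belong to single genes, and the list counts only describe the lists. Genes named are the 3 members, list genes called in 2DF vs. 2DC, 3DF vs. 2DC or 3DF vs. 2DF, fixed cartilage genes (ACAN, COL2A1, MATN1, MATN2, COMP, SOX9), annotated neighbours, markers, and the 3 genes most like each member. ITGA2, in 3DF vs. 3DF_50, SOX9, GDF5 and the calls of COL2A1, in the 3DF_50 comparisons, COL9A1, RSAD1 and the other genes given as levels were named after their values were seen. Symbols matched 64 of 68 list genes, CNMD as LECT1. Alternatives were DESeq2 1.42.0, limma 3.58.1 (pseudocounts of 1 and 0.1 on FPKM), other scalings and filters, all 5 conditions in the fit, a replicate block, the library prefix, and leaving out each library. Python 3.11.15 with matplotlib 3.10.9 drew the figures.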

Additional observations from a re-analysis of the deposited data

How the results depend on the processing

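Over 17 alternatives each, MATN3 and CHAD ranged from -6.18 to -3.09 and from -1.92 to -1.55 in 3DF_50 vs. 2DF, and from -5.23 to -2.89 and from -1.50 to -0.93 in 3DF vs. 2DF. The values nearest 0 in 3DF vs. 2DF came with the library prefix as a term. In that fit each comparison with 2DF rests on its E5 library alone, so that it cannot tell whether calls there hold. No call of a member was made in 3DF vs. 3DF_50 or 2DC vs. 2DC_L under any alternative. Of the alternative values for members and list counts, 547 kept direction and side of the threshold or stayed within the spread, 43 moved further, 4 reversed, 3 came past the threshold and 2 fell short of it. For other named genes, 618 kept theirs, 90 lost the call and 1 moved, with 28 losses under the prefix and 29 with a library left out. SOX9 and GDF5 in the 3DF_50 comparisons were added after seeing the data. The cause was not tested.

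The prefix as a term further gave MATN4 -1.13 in 3DF_50 vs. 2DF and 0.073 in 2DC vs. 2DC_L. It gave MATN3 1.06 and CHAD 2.29 in 2DF vs. 2DC, and MATN3 -3.53 in 3DF_50 vs. 2DC. Against 2DC_L it gave MATN3 1.23 and MATN4 2.22 in 2DF, and MATN3 -1.66 in 3DF and -3.36 in 3DF_50. With limma on log2(FPKM + 1), with or without a filter, the pseudocount shrinks low genes, and MATN3 was 2.00, -0.99 and -1.09 against 2DC in 2DF, 3DF and 3DF_50, and 2.08, -0.91 and -1.01 against 2DC_L. List calls were then 8 in place of 17 in 3DF_50 vs. 2DC, 2 in 2DF vs. 2DC, and 7 without a filter in 3DF vs. 2DF. In 3DF vs. 3DF_50 they were 0 in each limma fit and with the prefix, 1 by library size alone, and 4 with DESeq2 or all 5 conditions in the fit. Scaling by library size alone put the median of all genes at 0.25 in 3DF_50 vs. 2DF and at -0.15 in 3DF vs. 3DF_50. In 2DF, 3DF and 3DF_50 vs. 2DC it put the median at 0.11, 0.19 and 0.37. It gave CHAD 1.25 and 1.00 in 3DF_50 vs. 2DC and 2DC_L, and MATN3 -2.32 in 3DF_50 vs. 2DC_L, and it turned the calls in 3DF_50 vs. 2DF from 190 higher and 397 lower to 394 and 287, those in 3DF vs. 3DF_50 from 42 and 18 to 24 and 29, and those in 3DF vs. 2DC from 437 and 583 to 649 and 475.

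With a library left out, MATN4 ranged from -0.56 to 0.044 in 3DF vs. 2DF and from -1.16 to -0.73 in 3DF_50 vs. 2DF, MATN3 from -0.082 to 0.35 in 2DC vs. 2DC_L, from -3.63 to -2.45 in 3DF_50 vs. 2DC, and, against 2DC_L, from -2.50 to -1.69 in 3DF and from -3.47 to -2.29 in 3DF_50. List calls in 3DF vs. 3DF_50 ranged from 0 to 4. MATN3 had only 2 to 18 counts in each 3D library, which limits the precision of its value there.

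The replicate numbers were not used as pairs: in no comparison did all 3 same-numbered pairs correlate above 0.1 (0.378, 0.0682 and 0.120 in 2DC vs. 2DC_L). Replicates 1 and 2 of 2DC and 2DC_L do share the prefixes E2 and E3, and whether they form pairs was not tested. With the replicate block, 3DF vs. 2DF gave MATN3 -4.84, MATN4 -0.22 and CHAD -1.33 and 427 calls in place of 499, and the block moved no member across the threshold.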
